A study of Drosophila melanogaster with 14 samples.

Results

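In the wing disc of wandering L3 Drosophila melanogaster larvae, 36 of 17807 annotated genes were expressed in the wildtype strain and nearly silent in nub1 mutants. They were picked by their own levels, as CPM, the counts scaled to a library total of 1000000. A gene had to reach a mean of at least 2 CPM in wildtype, stay under 1 CPM in nub1 and lie at least 4-fold lower there. Of the 7202 genes with a wildtype mean of 2 CPM or more, 50 met these limits (0.694%), and 14 of those are left out here by name. These are the cytochrome P450 genes Cyp4p1 and Cyp4p2, the receptor and channel genes Ir51a and ppk13, the cuticle protein gene Cpr31A, 3 long noncoding and 2 antisense RNAs, and pdm2, Klp54D, Oseg5 and unc-13-4A. Because the levels in nub1 and wildtype chose the genes, their difference is described below without a test. Tests are given only for genes outside the set: nub, markers of cell types, and genes beside the 36 on the chromosome or related by name.

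The 6 libraries of total RNA came from dissected wing imaginal discs, 3 of the genotype yw, called wildtype here, and 3 of the genotype yw;nub[1], called nub1. Both groups thus carry yw, and any difference of strain background other than nub[1] cannot be told apart from the allele. The series' own design text calls the tissue mutant for nub and pdm2, and pdm2 was among the genes left out by name, with a mean of 56.4 CPM in wildtype and 0.108 CPM in nub1. Chromatin accessibility and ChIP-seq libraries of the same series were not analysed here.

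The wing disc is the larval epithelium that everts at metamorphosis to form the adult wing, hinge and notum, and it carries precursors of flight muscle and tracheal cells on its basal side. Nubbin, encoded by nub, is a POU domain transcription factor found in the wing pouch and hinge, and the loss of its function there leaves only a small rudiment of a wing. In whole discs, fewer cells that transcribe a gene and less RNA per cell cannot be told apart.

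Library totals ran from 58434785 to 83448836 counts. The targeted gene, nub (FBgn0085424, 2L, 12587625 to 12628135), had 341, 316 and 319 CPM in wildtype replicates 1 to 3 and 13.2, 12.3 and 7.53 CPM in nub1 replicates 1 to 3, with no overlap between the genotypes. The fitted log2 fold change (edgeR, ± SE) was -4.92 ± 0.25, with an adjusted p of 0.000158. Replicates of a genotype differed by more than sampling noise, with a chi-square per degree of freedom of 14.7 to 16.7 among wildtype libraries. In nub1, replicates 1 and 2 differed by 3.95, while replicate 3 stood apart from replicates 1 and 2 at 30.1 and 23.1. The labels do not say whether replicates are separate larvae or crosses, so p-values reflect the spread among these libraries alone, and that spread may be technical.

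Markers of the disc epithelium were abundant in every library, their 10 genes summing to 3741.0 to 3914.6 CPM in wildtype and 3386.8 to 3630.1 CPM in nub1, led by hth. That list includes nub itself, at means of 326 CPM in wildtype and 11 CPM in nub1, which is part of the lower nub1 sums. All 10 were tested, and 4, nub among them, were lower in nub1 and 3 higher. Markers of other tissues moved in both directions between the genotypes. Called here are genes with an edgeR adjusted p under 0.05, by which 23.9% of all tested genes were lower in nub1 and 24.4% higher. Salivary gland markers moved the same way as the 36 genes: all 7 tested of 9 were lower in nub1, and their sum was 7.77 to 10.2 CPM in wildtype and 1.97 to 2.84 CPM in nub1, with Sgs7 highest at a wildtype mean of 3.08 CPM and ng3 at 0 in every library. Sums for adult muscle precursors (led by Ama) were 572 to 627 CPM in wildtype and 458 to 505 CPM in nub1, with 3 of 7 tested genes lower and 2 higher. Tracheal sums (led by verm) were 822 to 885 CPM and 1245.3 to 1288.7 CPM in the same order, with 1 of 4 tested genes lower and 2 higher. Haemocyte sums (led by Col4a1) were 166 to 232 CPM and 401 to 442 CPM, with 2 of 7 lower and 3 higher. Larval muscle markers (led by Act57B) summed to 39.1 to 53.1 CPM in wildtype and 56.1 to 70.7 CPM in nub1, and 5 of 6 were higher and 0 lower. Body wall cuticle markers (led by TwdlT) summed to 6.11 to 8.54 CPM in wildtype and 11.2 to 18.4 CPM in nub1, and 4 of 5 tested were higher and 0 lower. Fat body sums (led by Lpin) overlapped, at 81.1 to 111 CPM in wildtype and 89.2 to 99.8 CPM in nub1, with 1 of 7 lower and 2 higher. Neuronal and glial sums (led by elav) were 45.9 to 50.3 CPM in wildtype and 54.3 to 55.1 CPM in nub1, with 2 of 5 tested lower and 3 higher. Gut markers (led by LManII, the only 1 of 8 tested, which did not pass the test) summed to 35.5 to 48.2 CPM in wildtype and 50.5 to 75.5 CPM in nub1. Testis markers (led by fzo) summed to 1.07 to 1.51 CPM in wildtype and 1.10 to 1.39 CPM in nub1, with 1 of 4 tested higher, 0 lower, and dj, Mst84Da, Mst98Ca and sa at 0 in every library. The yolk protein genes (led by Yp3) summed to 0.631 to 0.719 CPM in wildtype and 0.381 to 0.503 CPM in nub1, and neither of the 2 tested was called. None of these lists holds any of the 36 genes, and their part in the levels below was not tested.

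The 36 genes were of modest abundance in wildtype, with means from 2.11 to 54.9 CPM and a median of 4.03 CPM. Only 6 reached 10 CPM, and 21 lay under 5 CPM. In nub1 their means ran from 0.0174 to 0.878 CPM with a median of 0.182 CPM, and the counts behind them, summed over the 3 nub1 libraries, ran from 4 to 203. The ratio of the means ran from 4.19 to 2119.3 with a median of 25.5, and 9 genes lay at least 100-fold lower, 10 between 20- and 100-fold and 17 less than 20-fold. All 36 passed the filter on low counts, which their wildtype level alone ensures. In 35 of them every nub1 library lay below every wildtype library, as it did for 24.8% of all tested genes. Since the means chose the genes, nothing is read from that count, or from the distance between genotypes where it is given for single genes below. Summed over the 36 genes, the libraries held 256, 275 and 290 CPM in wildtype replicates 1 to 3 and 10.3, 10.6 and 9.66 CPM in nub1 replicates 1 to 3.

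**Figure D1:**
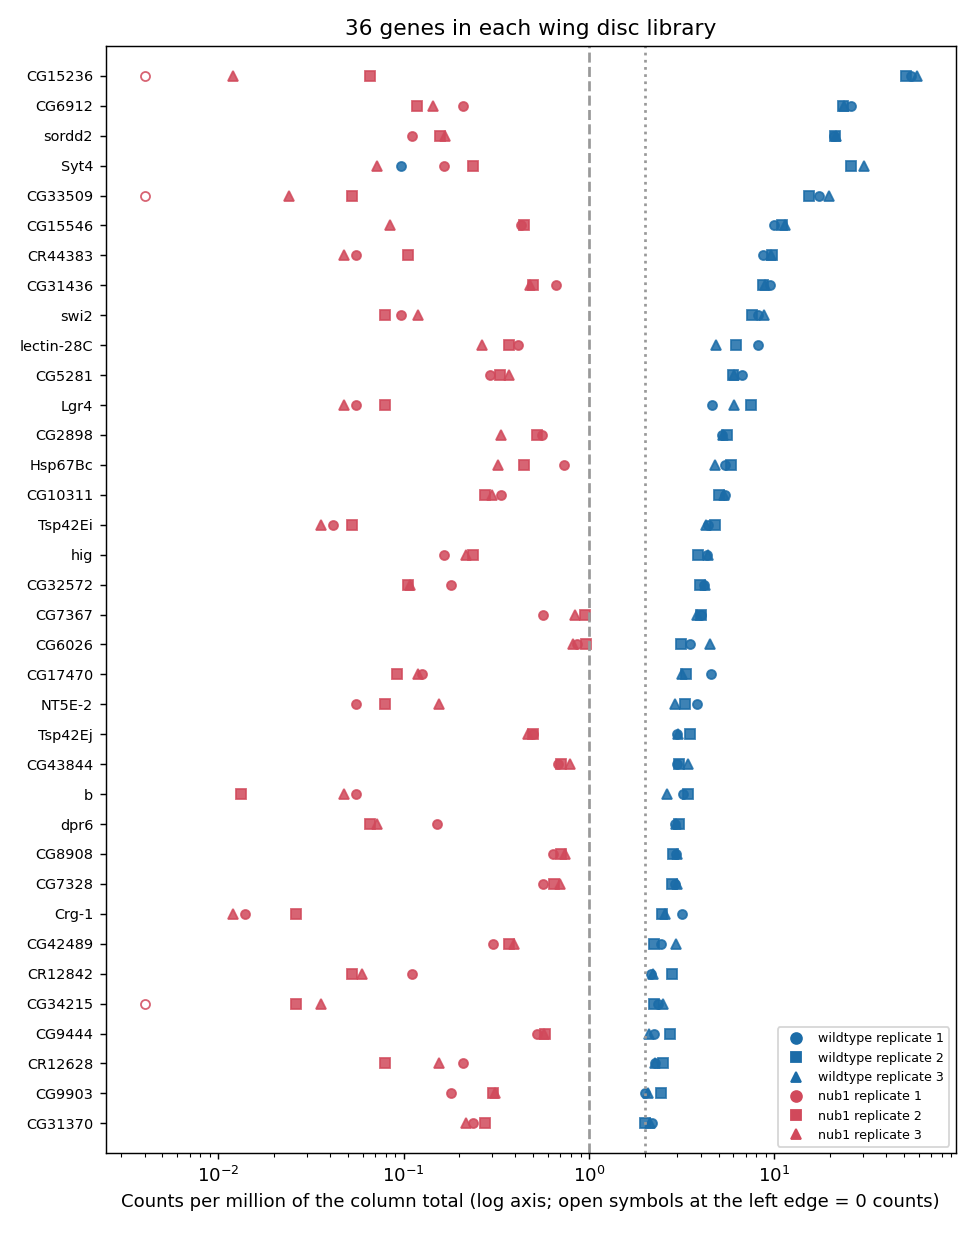
CPM (log axis) of the 36 genes in each of the 6 libraries, ordered by wildtype mean, with wildtype in blue, nub1 in red and a symbol for each replicate; open symbols at the left edge mark 0 counts, and the dotted and dashed lines mark the limits of 2 and 1 CPM. Every gene has its blue symbols to the right of its red ones except Syt4, whose wildtype replicate 1 lies at 0.0968 CPM among the nub1 values.

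By annotation 33 of the 36 are protein-coding and 3 are pseudogenes. Of the coding genes 20 carry only a CG number, to which no role is given here, and 13 have a name. A member's annotated span, introns included, had a median of 2.08 kb, against 2.71 kb for all tested genes. The coefficient of variation over the wildtype libraries had a median of 6.71%, against 3.96% for the 3976 genes with wildtype means of 2 to 60 CPM. These medians are not matched for level, as the set's median level was 4.03 CPM, so no excess of variation is read from them. Apart from Syt4 the most variable member was lectin-28C at 26.0%. CPM values are not divided by transcript length, so levels are compared between libraries and not between genes. In what follows, values of each genotype are given in the order of replicates 1 to 3, and positions are those of the Release 6 genome.

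Among the named genes, 8 are known or named for roles at the cell surface, outside the cell or in vesicle traffic. Lgr4 (FBgn0085440, X, 13161714 to 13189164), a leucine-rich repeat G protein-coupled receptor, had 4.63, 7.44 and 6.08 CPM in wildtype and 0.0555, 0.0789 and 0.0479 CPM in nub1. Its mean was 6.05 ± 1.41 CPM against 0.0608 ± 0.0162 CPM (SD, n = 3 libraries in each genotype, as for all means below), a ratio of 99.6. The wildtype libraries varied among themselves by more than for most of the set, yet the lowest of them lay far above the highest nub1 library. The other receptors of that name, Lgr1 and Lgr3, were too low to test in either genotype.

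The tetraspanins are small proteins with 4 membrane spans that organise other membrane proteins into patches, and 2 of them, close together on 2R, belong to the set. Tsp42Ei (FBgn0033130, 2R, 7035125 to 7036949) had 4.39, 4.76 and 4.30 CPM in wildtype and 0.0416, 0.0526 and 0.036 CPM in nub1, a ratio of 103 between the means. Tsp42Ej (FBgn0033132, 2R, 7040136 to 7042762), also called sunglasses and known as a lysosomal tetraspanin of photoreceptors, had 2.97, 3.51 and 3.02 CPM in wildtype and 0.499, 0.5 and 0.467 CPM in nub1, a ratio of 6.48. Tsp42Ej kept a low but steady level in all 3 nub1 libraries.

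Other surface and secreted proteins are known mainly from the nervous system. The synaptic cleft protein gene hig (hikaru genki, FBgn0010114, 2R, 9227785 to 9247249), whose product is secreted at cholinergic synapses, had 4.34, 3.88 and 4.36 CPM in wildtype and 0.166, 0.237 and 0.216 CPM in nub1, a ratio of 20.3. The cell adhesion gene dpr6 (FBgn0040823, 3L, 9974651 to 10139360), of the immunoglobulin family whose members pair with DIP proteins, averaged 2.97 ± 0.0726 CPM in wildtype and 0.0967 ± 0.0484 CPM in nub1, a ratio of 30.7. At 165 kb dpr6 has a far longer span than the median member.

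The genes named for a lectin and a nucleotidase follow. lectin-28C (FBgn0040099, 2L, 7857077 to 7860120), of the C-type lectins that bind sugars, had 8.13, 6.18 and 4.83 CPM in wildtype and 0.416, 0.368 and 0.264 CPM in nub1, a ratio of 18.3. NT5E-2 (FBgn0050104, 2R, 17485002 to 17493169), named as a 5'-nucleotidase, a class of enzyme that takes the phosphate off nucleoside monophosphates, had 3.81, 3.29 and 2.90 CPM in wildtype and 0.0555, 0.0789 and 0.156 CPM in nub1, a ratio of 34.4. Both spread more widely in wildtype than most of the set.

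Syt4 (FBgn0028400, 3R, 7266065 to 7270809) encodes a synaptotagmin, a membrane protein of vesicle traffic known at the fly neuromuscular junction for retrograde signalling from muscle. It had 0.0968, 25.9 and 30.5 CPM in wildtype and 0.166, 0.237 and 0.0719 CPM in nub1. In counts, wildtype replicate 1 held 6 reads where replicates 2 and 3 held 1516 and 2517. That library thus lay inside the range of the nub1 libraries, and Syt4 is the one gene of the 36 whose genotypes overlapped. The mean of 18.9 ± 16.4 CPM in wildtype against 0.158 ± 0.0827 CPM in nub1 gave a log2 ratio of -6.90, which was -7.48 without wildtype replicate 1. Among the other 35 genes, wildtype replicate 1 showed no such drop. With every library required to pass the limits instead of the means, Syt4 was the single gene lost.

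**Figure D2:**
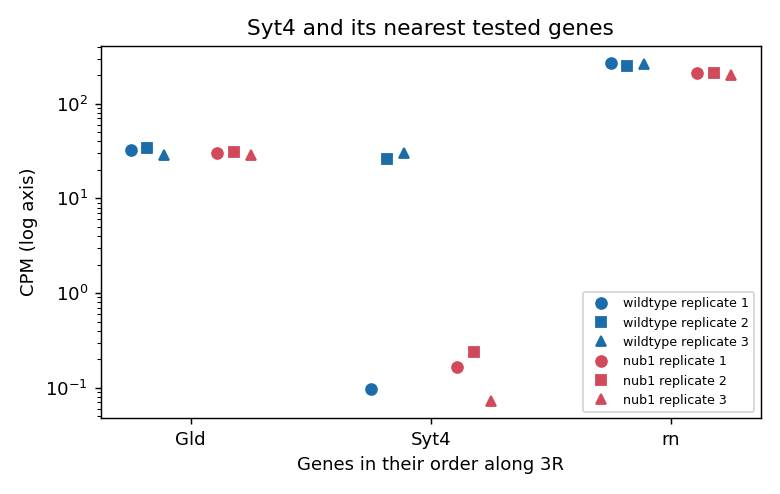
CPM (log axis) of Syt4 and its nearest tested gene on each side in the 6 libraries, wildtype in blue and nub1 in red. Wildtype replicate 1 is low for Syt4, at 0.0968 CPM, while its values for Gld and rn lie with those of the other wildtype libraries.

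The genes on each side of Syt4 did not share the low library. Gld, which encodes glucose dehydrogenase and ends 361 bases to the left, had 32.8, 34.1 and 29.0 CPM in wildtype and 30.3, 31.1 and 28.4 CPM in nub1, and did not pass the test (log2 fold change -0.13 ± 0.07; edgeR adjusted p = 0.163; 0.018 without wildtype replicate 3 and 0.0201 with the replicate numbers as a block). The zinc finger gene rn (rotund), 1807 bases to the right, had 270, 250 and 264 CPM in wildtype and 210, 211 and 199 CPM in nub1 and fell by 0.37 ± 0.04 on the log2 scale (edgeR adjusted p = 5.08e-05). Of the other 4 genes named Syt and a number, 3 were tested. Syt1 rose from 0.571 to 1.25 CPM, by 1.08 ± 0.16 on the log2 scale (edgeR adjusted p = 0.000731), while the other 2 did not pass the test.

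Of the other 5 named genes 4 act inside the cell, and for swi2 no role is given here. sordd2 (FBgn0052581, X, 15796908 to 15799162), which encodes a RING-type ubiquitin ligase, had 20.9, 21.2 and 21.6 CPM in wildtype and 0.111, 0.158 and 0.168 CPM in nub1, a ratio of 146. Its wildtype libraries differed by less than those of any other gene of the set. sordd1, the other gene of that name, starts to the left of sordd2 with a gap of 879 bases between them and is tested among the neighbours below.

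The gene b (black, FBgn0000153, 2L, 13821248 to 13823979) encodes aspartate 1-decarboxylase, which makes the beta-alanine used for tan cuticle, and adults that lack it are dark. It had 3.21, 3.41 and 2.65 CPM in wildtype and 0.0555, 0.0132 and 0.0479 CPM in nub1, which are 4, 1 and 4 counts. The ratio was 79.5, with a nub1 level resting on 9 counts in all.

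Hsp67Bc (FBgn0001229, 3L, 9371511 to 9372497), a small heat shock protein of the cluster at 67B, had 5.40, 5.80 and 4.76 CPM in wildtype and 0.735, 0.447 and 0.324 CPM in nub1, a ratio of 10.6. Crg-1 (FBgn0021738, X, 3793223 to 3797339), a forkhead domain gene named for circadian regulation, averaged 2.75 ± 0.385 CPM in wildtype and 0.0174 ± 0.00778 CPM in nub1, where the libraries held 1, 2 and 1 counts, a ratio of 158. swi2 (FBgn0034262, 2R, 17690275 to 17695353) had 8.18, 7.60 and 8.82 CPM in wildtype and 0.0970, 0.0789 and 0.120 CPM in nub1, a ratio of 83.2. Crg-1 had the lowest nub1 mean of the set.

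The 2 largest ratios, those of CG15236 and CG33509, belonged to genes known only by number. CG15236 (FBgn0033108, 2R, 6828356 to 6838360) had 54.6, 51.4 and 58.7 CPM in wildtype and 0, 0.0658 and 0.012 CPM in nub1, from 3387, 3003 and 4838 counts and from 0, 5 and 1 counts. This was the most abundant gene of the set in wildtype and had the largest ratio, 2119.3. Most of its nub1 counts lay in replicate 2, without which the pooled ratio rested on 1 count and was 8543.9, with a 95% counting interval of 1533.5 to 337465.4. A count of 0 in nub1 replicate 1 allows a level of up to 0.0416 CPM, which is 3 counts of that library.

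CG34215 (FBgn0085244, 2R, 6831296 to 6831793) lies wholly within the span of CG15236. It had 2.36, 2.24 and 2.50 CPM in wildtype and 0, 0.0263 and 0.036 CPM in nub1, a ratio of 114, or a pooled 175 on 2 counts without nub1 replicate 3 (95% counting interval 48.5 to 1447.3). Since the sources used here do not give the strand setting of the counting, reads of these overlapping genes cannot be assigned with certainty to either.

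CG33509 (FBgn0053509, 2L, 21084605 to 21086506), also listed as Dro34-0, had 17.3, 15.3 and 19.7 CPM in wildtype and 0, 0.0526 and 0.024 CPM in nub1, a ratio of 683. Its 6 counts in nub1 included 4 in replicate 2, without which the pooled ratio was 1356.0 (2 counts, 95% counting interval 375 to 11197.2). CG6912 (FBgn0038290, 3R, 15135138 to 15137004) had 25.9, 23.4 and 23.8 CPM in wildtype and 0.208, 0.118 and 0.144 CPM in nub1, a ratio of 156. These genes and CG15236 were well above all nub1 libraries in every wildtype library.

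Of the other numbered genes, CG32572, CG17470 and CG15546 had ratios between 31.4 and 33.7. CG32572 (FBgn0052572, X, 16721183 to 16726948) had 4.15, 3.95 and 4.24 CPM in wildtype and 0.180, 0.105 and 0.108 CPM in nub1, a ratio of 31.4. CG17470 (FBgn0032869, 2L, 20642306 to 20643244) had 4.55, 3.35 and 3.18 CPM in wildtype and 0.125, 0.0921 and 0.120 CPM in nub1, a ratio of 32.9. Wildtype replicate 1 was the high library for CG17470 and not for CG32572.

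CG15546 (FBgn0039807, 3R, 30874365 to 30876186) had 9.99, 11.0 and 11.4 CPM in wildtype and 0.430, 0.447 and 0.0839 CPM in nub1, a ratio of 33.7. Its nub1 replicate 3 was the low library, with 7 counts against 31 and 34. Without that replicate its log2 ratio moved from -5.08 to -4.62.

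CG31436 (FBgn0051436, 3R, 25304137 to 25305651) had 9.45, 8.69 and 8.86 CPM in wildtype and 0.665, 0.5 and 0.479 CPM in nub1, a ratio of 16.4. CG31370 (FBgn0051370, 3R, 25302464 to 25303986), which ends 150 bases to its left, had 2.18, 2 and 2.14 CPM in wildtype and 0.236, 0.276 and 0.216 CPM in nub1, a ratio of 8.68. RefSeq lists them as Dro5-10 and Dro5-8 and gives both the older name CG13660. The sources used here do not say how reads mapping to several places were counted, so the split between such neighbours is uncertain.

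CG5281 (FBgn0037902, 3R, 11435850 to 11437523) had 6.66, 5.96 and 6.07 CPM in wildtype and 0.291, 0.329 and 0.371 CPM in nub1, a ratio of 18.8. CG2898 (FBgn0030195, X, 10375374 to 10376628) had 5.20, 5.54 and 5.30 CPM in wildtype and 0.555, 0.526 and 0.336 CPM in nub1, a ratio of 11.3. CG10311 (FBgn0038420, 3R, 16350786 to 16357015) had 5.42, 5 and 5.36 CPM in wildtype and 0.333, 0.276 and 0.300 CPM in nub1, a ratio of 17.4. In all 3 the genotypes were far apart, and nub1 replicate 3 was the low library for CG2898.

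Nearer to the limits lay CG7367, CG6026 and CG43844. CG7367 (FBgn0031976, 2L, 8026914 to 8039788) had 4.03, 4.04 and 3.8 CPM in wildtype and 0.568, 0.947 and 0.839 CPM in nub1, a ratio of 5.04. CG6026 (FBgn0038676, 3R, 19033538 to 19044693) had 3.50, 3.15 and 4.47 CPM in wildtype and 0.859, 0.960 and 0.815 CPM in nub1, a ratio of 4.22. CG43844 (FBgn0264426, 3R, 21889539 to 21890171) had 2.98, 3.05 and 3.41 CPM in wildtype and 0.679, 0.710 and 0.791 CPM in nub1, a ratio of 4.33. These had the highest nub1 means of the set, and still no nub1 library reached 1 CPM.

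The numbered genes not yet described averaged 2.17 to 2.92 CPM in wildtype. CG42489 (FBgn0259992, 3R, 8653802 to 8654766) averaged 2.55 CPM in wildtype and 0.356 CPM in nub1, and CG9903 (FBgn0030756, X, 16539153 to 16540852) averaged 2.17 and 0.265 CPM. CG8908 (FBgn0034493, 2R, 20264920 to 20270994), CG7328 (FBgn0036942, 3L, 20139210 to 20140607) and CG9444 (FBgn0037730, 3R, 9681415 to 9684264) had the smaller ratios of 4.19, 4.58 and 4.20. None of these 5 overlapped between the genotypes, from which nothing is read, as their means chose them.

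The 3 pseudogenes lie on X, 2R and 2L. CR44383 (FBgn0265533, X, 15796477 to 15796897) had 8.70, 9.74 and 9.64 CPM in wildtype and 0.0555, 0.105 and 0.0479 CPM in nub1, a ratio of 135. CR44383 ends 10 bases to the left of sordd2, which is also of the set. CR12842 (FBgn0033131, 2R, 7039130 to 7039813), between Tsp42Ei and Tsp42Ej, had 2.16, 2.82 and 2.21 CPM in wildtype and 0.111, 0.0526 and 0.0599 CPM in nub1, a ratio of 32.2. CR12628 (FBgn0042701, 2L, 22226152 to 22226771), which RefSeq also lists as Mgstl-Psi, averaged 2.35 ± 0.132 CPM in wildtype and 0.148 ± 0.0649 CPM in nub1, a ratio of 15.9. A pseudogene can share reads with its parent gene, so these levels are uncertain.

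The limits themselves fell among a continuum of genes. Just inside the wildtype limit were CG31370, CG9903 and CR12628 at 2.11, 2.17 and 2.35 CPM, and just outside were CG13679, CG7916 and Sgs5 at 1.91, 1.87 and 1.79 CPM. At the nub1 limit CG6026, CG7367 and CG43844 at 0.878, 0.785 and 0.727 CPM were inside, and pinta, krimp and sens at 1.45, 1.52 and 1.54 CPM were outside. At the ratio limit CG8908, CG9444 and CG6026 at 4.19, 4.20 and 4.22 were inside, and Sgs7, CG14855 and CG10962 at 3.88, 3.82 and 3.6 were outside. Sgs5 and Sgs7, salivary glue protein genes, thus lay just outside.

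The 36 genes were spread over the genome. The third chromosome's right arm, 3R, held 11 (30.6% of the set, against 24.0% of all tested genes), 2R held 9 (25.0% against 20.5%), X held 7 (19.4% against 17.2%), 2L held 6 (16.7% against 17.3%) and 3L held 3 (8.33% against 19.8%). The fourth chromosome held 0, against 0.976% of all tested genes. The Y also held 0, where no gene reached the wildtype limit of 2 CPM. The second chromosome, which carries nub, held 15 (41.7% against 37.8%). Before genes were left out by name, it held 26 of the 50 that met the limits (52%), against 37.6% of all genes with a wildtype mean of 2 CPM or more.

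**Figure D3:**
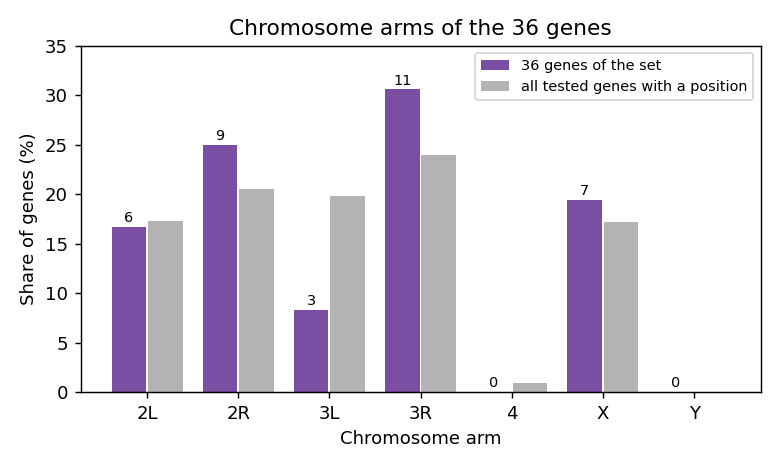
Share (%) of the 36 genes on each chromosome arm (purple, with the number of genes above each bar) and share of all tested genes with a position (grey). The second chromosome's arms 2L and 2R hold 6 and 9 of the genes, and 3R holds 11.

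The gene nearest to nub among the 50 that met the limits was pdm2, which starts 29 kb to its right and is left out by name. Of the 36, the nearest was b, 1.19 Mb to the right, followed by CG7367 and lectin-28C, 4.55 and 4.73 Mb to the left. CG17470, CG33509 and CR12628 lay 8.01, 8.46 and 9.60 Mb to the right. Of the 36, 9 lay within 20 kb of another of the set, in 4 places: CG31370 with CG31436, CG34215 within CG15236, CR44383 with sordd2, and Tsp42Ei, CR12842 and Tsp42Ej together.

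The last of these places lies in the Tsp42E cluster, a run of tetraspanin genes that spans 73.4 kb of 2R. Counting CR12842, 18 of its genes were looked at, and the 3 of the set follow each other, with CG33914, too low to test, between Tsp42Ei and CR12842, and with gaps of 2180 bases between Tsp42Ei and CR12842 and 322 bases between CR12842 and Tsp42Ej. Of the other 15 genes 8 could be tested, and 1 fell, 4 rose and 3 did not pass the test. Calls here and below are at an edgeR adjusted p under 0.05, by which 23.9% of all tested genes were lower and 24.4% higher. Tsp42Ea, at the left end, fell from 24.2 ± 1.74 to 15.4 ± 1.35 CPM (fitted log2 fold change -0.69 ± 0.07; edgeR adjusted p = 0.000137). Tsp42Ef, the nearest tested gene to the left, stood at 44.3 ± 1.27 and 45 ± 2.52 CPM and did not pass the test.

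To the right, Tsp42Ek rose from 0.166 ± 0.0498 to 0.359 ± 0.0425 CPM (fitted log2 fold change 1.09 ± 0.28; edgeR adjusted p = 0.0114; 0.0514 with DESeq2). Tsp42El rose from 2.40 ± 0.113 to 4.71 ± 0.200 CPM (fitted log2 fold change 0.94 ± 0.09; edgeR adjusted p = 3.75e-05). Tsp42Ee, to the left and the most abundant of the cluster, had 365 ± 22.7 and 425 ± 22.5 CPM (fitted log2 fold change 0.19 ± 0.05; edgeR adjusted p = 0.0107). Tsp42Ep rose by 0.48 ± 0.15 on the log2 scale (edgeR adjusted p = 0.0267), a call that was lost without wildtype replicate 1 or 3 or any one of the nub1 replicates, where the adjusted p was 0.0547 to 0.0817. The low nub1 level was thus seen in 3 successive members. The nearest tested gene on each side was higher in nub1 or did not pass the test, while Tsp42Ea, further left, was lower. Tsp42Ej and Tsp42Ek share 107 annotated bases.

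**Figure D4:**
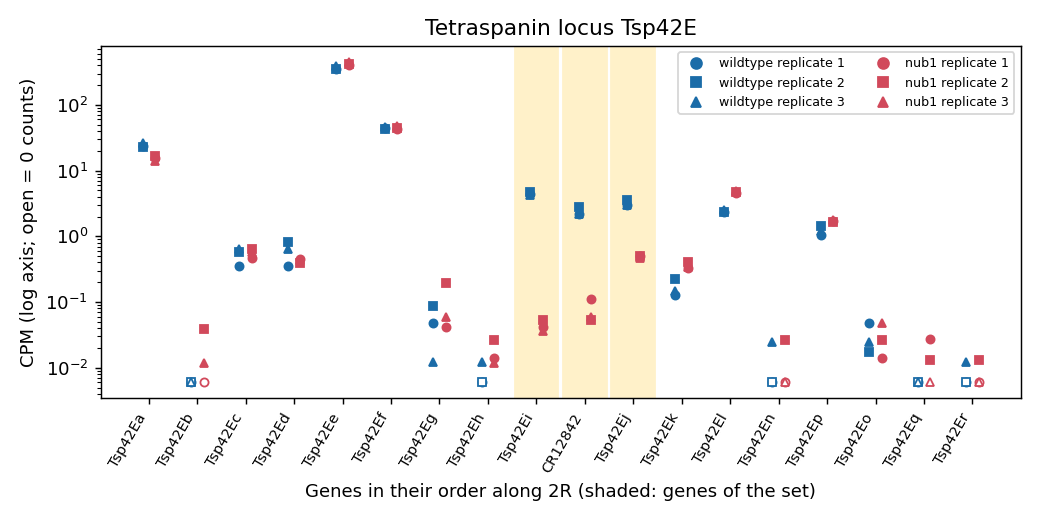
CPM (log axis) of the 18 genes looked at in the Tsp42E cluster in each library, in chromosome order, wildtype in blue and nub1 in red, with open symbols for 0 counts and shading for Tsp42Ei, CR12842 and Tsp42Ej. The shaded genes are the ones whose blue and red symbols lie far apart, with ratios of 103, 32.2 and 6.48.

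Across the genome 32 other genes carry the Tsp stem, of which 20 were tested. Of these 4 fell, 7 rose and 9 did not pass the test. Tsp68C on 3L, which missed the wildtype limit of the set, fell from 1.16 ± 0.152 to 0.0474 ± 0.00553 CPM (fitted log2 fold change -4.59 ± 0.25; edgeR adjusted p = 1.69e-06), and Tsp5D fell from 0.953 ± 0.176 to 0.358 ± 0.0547 CPM (fitted log2 fold change -1.43 ± 0.22; edgeR adjusted p = 0.000752).

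The dpr genes other than dpr6 were mostly too low to test. Of 20, 5 were tested, and 3 rose while 0 fell. dpr17 rose from 2.13 ± 0.344 to 8.01 ± 0.835 CPM (fitted log2 fold change 1.88 ± 0.13; edgeR adjusted p = 5.37e-06), dpr16 from 3.65 ± 0.484 to 7.35 ± 0.972 CPM (0.97 ± 0.12; edgeR adjusted p = 0.000216) and dpr1 from 0.0417 ± 0.0235 to 0.429 ± 0.117 CPM (3.34 ± 0.44; edgeR adjusted p = 0.000336). dpr10, the next dpr gene to the right of dpr6, had 0.135 ± 0.0549 CPM in wildtype and 0.013 ± 0.000949 CPM in nub1 and was too low to test.

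The genes with the Hsp stem other than Hsp67Bc gave 7 higher, 0 lower and 6 not called of 13 tested, out of 18. Those higher included Hsp68, which rose from 8.03 ± 0.436 to 190 ± 35.9 CPM (fitted log2 fold change 4.53 ± 0.20; edgeR adjusted p = 8.03e-05), and the Hsp70 copies, which are nearly identical and may share reads. Hsp26, the nearest tested gene to the right of Hsp67Bc, stood at 205 ± 21.7 and 262 ± 37.2 CPM, a difference the test did not call (log2 fold change 0.32 ± 0.14; edgeR adjusted p = 0.133; 0.0301 without nub1 replicate 3, and 0.00771 with the replicate numbers as a block).

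Of 12 other lectin genes by name only 2 could be tested, and both fell. lectin-46Cb fell from 0.543 ± 0.0819 to 0.219 ± 0.0681 CPM (fitted log2 fold change -1.34 ± 0.27; edgeR adjusted p = 0.00378). lectin-24Db had 1.63 ± 0.575 and 1.02 ± 0.106 CPM (fitted log2 fold change -0.70 ± 0.24; edgeR adjusted p = 0.0364), and its call was lost without wildtype replicate 1 or any one of the nub1 replicates, with adjusted p of 0.052 to 0.113. No other gene carries the stem of swi2 or Crg-1, and NT1, which shares only the letters of NT5E-2, was not called.

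The genes next to the 36 were tested across all 9186 genes that passed the filter. Genes of the set were passed over as neighbours, so a neighbour could meet the limits only if left out by name. The nearest other tested gene on each side that did not overlap the member gave 63 distinct genes, since some members share a neighbour. Of the 72 gaps, 45 were under 5 kb, with a median of 2.86 kb and a range from 0 bases between b and PolG1 to 155 kb. In nub1, 23 of the 63 were lower (36.5%, against 23.9% of all tested genes), 15 were higher (23.8% against 24.4%) and 25 were not called (39.7% against 51.7%). At a change of at least 2-fold, 5 were lower (7.94% against 4.74%) and 5 higher (7.94% against 5.51%). Their median log2 fold change was -0.05, against -0.00 for all tested genes. Among the 63, ppk13 alone met the same limits, and it is left out of the set by name. Since genes of the set were passed over, that count does not show how often genes beside a member share its near silence.

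**Figure D5:**
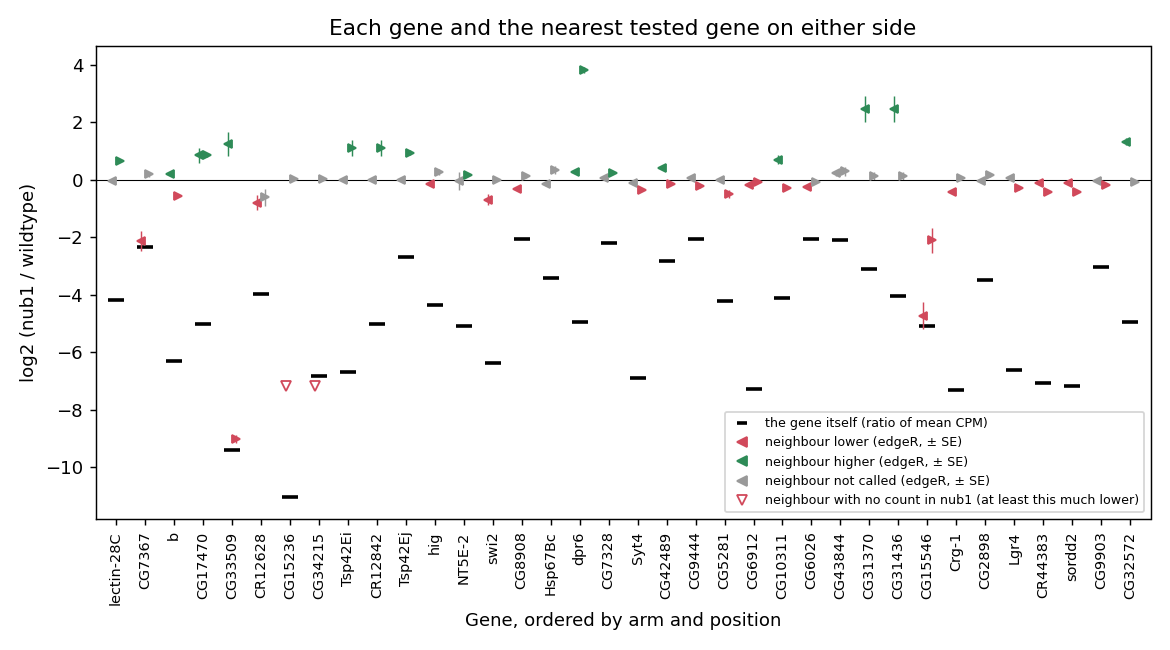
Log2 ratio of nub1 to wildtype for each of the 36 genes (black bars, ratio of mean CPM) and for the nearest tested gene to its left and right (triangles pointing left and right, edgeR log2 fold change ± SE), in order of arm and position; red triangles are lower, green higher and grey not called, and the open symbol is a bound for a neighbour with no count in nub1. Genes of the set and genes that overlap the member are passed over as neighbours. Most triangles lie near 0 while the bars lie at -2.07 or below. The neighbours that lie as low as -2 sit beside CG7367, CG33509, CG15236 and CG34215, and CG15546.

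Counted by member, 22 had at least 1 lower neighbour and 14 had none. For 4 members both neighbours were lower, for 2 both were higher, for 4 they went opposite ways and for 3 neither was called. CR44383 and sordd2 are among those with both lower, and they have the same neighbours, sordd1 and CG15602. The same counts were not made for pairs of neighbours over all tested genes, so nothing is read from them. CG15546 was the member with both neighbours at least 2-fold lower. CG15545, 2013 bases to its left, had 0.807, 1.22 and 0.825 CPM in wildtype and 0.0555, 0.0526 and 0 CPM in nub1 (log2 fold change -4.73 ± 0.48; edgeR adjusted p = 7.85e-05), and a count of 0 in nub1 replicate 3 allows up to 0.036 CPM. CG12071, 897 bases to its right, had 0.242, 0.257 and 0.231 CPM in wildtype and 0.0139, 0.0789 and 0.0719 CPM in nub1 (log2 fold change -2.11 ± 0.44; edgeR adjusted p = 0.00385). The second nearest tested genes were lower as well, and are named after their values were seen. CG15544, 32.3 kb to the left, fell from 58.9 ± 6.14 to 29.6 ± 6.92 CPM (fitted log2 fold change -1.02 ± 0.21; edgeR adjusted p = 0.0162; 0.0568 without wildtype replicate 1). CG15547, 5605 bases to the right, fell from 3.09 ± 0.201 to 1.52 ± 0.437 CPM (fitted log2 fold change -1.05 ± 0.19; edgeR adjusted p = 0.00193). Around CG15546 all 4 of these tested genes were thus lower in nub1, and the genotypes overlapped for none of them.

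ppk13, of the pickpocket sodium channel family, lies 283 bases to the right of CG33509. It had 34.3, 30.8 and 36.2 CPM in wildtype and 0.0555, 0.0921 and 0.0479 CPM in nub1 (log2 fold change -9.02 ± 0.13; edgeR adjusted p = 3.17e-10). On the other side of CG33509, tadr, which encodes an amino acid transporter-like protein, had 0.0968, 0.0342 and 0.0849 CPM in wildtype and 0.166, 0.237 and 0.144 CPM in nub1 (log2 fold change 1.25 ± 0.42; edgeR adjusted p = 0.0373). The tadr call was lost with DESeq2, with the replicate numbers as a block and without any one library except nub1 replicate 3, at adjusted p of 0.0501 to 0.130.

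lncRNA:CR44442, 5759 bases to the left of CG15236, had 1.90, 1.78 and 1.89 CPM in wildtype and no count in any nub1 library. Its 378 wildtype counts against a floor of 3 counts over the nub1 group made it at least 144-fold lower, and it passed the test (edgeR adjusted p = 2.55e-06). On the other side, coro, which encodes the actin-binding protein coronin and lies 23.6 kb away, had 195, 189 and 195 CPM in wildtype and 201, 198 and 201 CPM in nub1 and did not pass the test. With CG34215, 3 tested genes in a row were thus at or near 0 in nub1.

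Tg, which encodes a transglutaminase that crosslinks proteins of clot and cuticle, ends 15 bases from CG7367. It had 1.19, 1.13 and 1.14 CPM in wildtype and 0.0970, 0.263 and 0.419 CPM in nub1 (log2 fold change -2.15 ± 0.35; edgeR adjusted p = 0.00125). Tg was thus lower in the same libraries as CG7367, which was chosen for its low nub1 level.

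The neighbours that were at least 2-fold higher stood beside dpr6, the CG31370 pair, CG32572, CG33509 and the Tsp42E genes. ect, 50.9 kb from dpr6, had 1.27, 1.16 and 1.35 CPM in wildtype and 16.7, 17.8 and 20.2 CPM in nub1 (log2 fold change 3.81 ± 0.09; edgeR adjusted p = 9.9e-09). CG31102, listed as Dro9-0, lies 6869 bases from CG31370 and rose from 0.0249 ± 0.00906 to 0.147 ± 0.00992 CPM (fitted log2 fold change 2.46 ± 0.46; edgeR adjusted p = 0.00234). Its wildtype libraries, at 0.0161, 0.0342 and 0.0243 CPM, each lay below the level of 3 counts, so the size of that rise is uncertain. CG4678, 10037 bases from CG32572, rose from 1.37 ± 0.126 to 3.49 ± 0.331 CPM (fitted log2 fold change 1.32 ± 0.12; edgeR adjusted p = 4.2e-05). These are the nearest tested genes that neither overlap the member nor belong to the set. Other genes lie between: dpr10 between dpr6 and ect, and CG34325, which overlaps CG32572, between it and CG4678.

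Smaller differences were seen beside other members, with these examples chosen after their values were seen. PolG1, the mitochondrial DNA polymerase, directly adjoins b and fell from 34.7 ± 1.54 to 24.1 ± 1.28 CPM (fitted log2 fold change -0.56 ± 0.04; edgeR adjusted p = 1.51e-05), while Sos, on the other side of b, rose by 0.18 ± 0.03 (edgeR adjusted p = 0.0011). sordd1, on the far side of CR44383 from sordd2, had 62.0 ± 0.912 and 57.9 ± 0.578 CPM (fitted log2 fold change -0.13 ± 0.03; edgeR adjusted p = 0.0043). The gene named like sordd2 thus kept nearly all of its level. CG15602, on the other side of sordd2, fell by 0.42 ± 0.05 on the log2 scale (edgeR adjusted p = 0.000158). Beside Crg-1, HIP-R fell from 108 ± 0.370 to 82.4 ± 1.00 CPM (edgeR adjusted p = 1.87e-06). phr6-4, the 6-4 photolyase gene 106 bases from CG17470, rose from 14.9 ± 1.55 to 27.6 ± 0.157 CPM (edgeR adjusted p = 1.89e-05). spz3, 13.4 kb from lectin-28C, rose from 22.2 ± 1.33 to 35.8 ± 2.58 CPM (edgeR adjusted p = 2.76e-05). veil, which RefSeq also lists as NT5E-1 and which lies 2883 bases from NT5E-2, stood at 0.226 ± 0.0766 and 0.223 ± 0.0475 CPM and was not called.

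Of the 36 genes, 20 overlap another annotated gene. With the strand setting unknown, their reads cannot be separated with certainty. Of the 19 tested genes that overlap a member and are not of the set, 9 were lower, 7 higher and 3 not called. Over all tested genes 23.9% were lower and 24.4% higher. Of the 19, 3 met the same limits, as did 0.694% of all genes with a wildtype mean of 2 CPM or more. As reads may be shared with the member, nothing is read from these counts. CG2898 lies wholly within CG17841, which rose from 33.8 to 61.7 CPM, by 0.84 ± 0.03 on the log2 scale (edgeR adjusted p = 8.27e-08). CG43844 lies wholly within CG6678, which rose from 14.4 to 18.7 CPM, by 0.34 ± 0.05 (edgeR adjusted p = 0.000742). The near silence of CG2898 and CG43844 was thus measured inside genes that were higher in nub1.

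hig encloses a run of cytochrome P450 genes, of which Cyp4p2 had means of 192 and 0.134 CPM, Cyp4p1 39.4 and 0.0164 CPM, and Cyp4p3 0.447 and 0.0266 CPM in wildtype and nub1. The first 2 met the limits and are left out of the set by name. Lgr4 encloses CG32640 and CG32641, which went the other way: CG32641 rose from 1.27 to 7.17 CPM, by 2.46 ± 0.10 on the log2 scale (edgeR adjusted p = 1.86e-07), and CG32640 from 0.0165 to 0.397 CPM, by 4.58 ± 0.78 (edgeR adjusted p = 0.00157). Both span 519 bases, and the split of reads between them is uncertain. The CG32640 rise rests on 3 counts over the wildtype libraries, against 94 over the nub1 libraries. CG43110, which shares 1219 bases with NT5E-2, fell from 0.352 to 0.0178 CPM, a log2 difference of -4.26 ± 0.59 (edgeR adjusted p = 0.000432). asRNA:CR45600, which shares 20 bases with CG6912, fell from 36.2 to 0.5 CPM, a log2 difference of -6.20 ± 0.08 (edgeR adjusted p = 2.07e-10).

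Of the 14 genes that met the limits and are left out by name, 5 lay within 20 kb of 4 members. These were Cyp4p1 and Cyp4p2 with hig, asRNA:CR45600 with CG6912, ppk13 with CG33509, and asRNA:CR45146, 2178 bases from swi2, which had a mean of 2.66 CPM in wildtype and no count in nub1.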

How the data were processed

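RNA-seq read counts per gene of 6 wing disc libraries, as deposited by the authors with no normalization, were used; 0 columns had no sample. Per the labels, a directional library kit was used. Per the submitters' processing notes, bcl2fastq, HISAT2, featureCounts, Bowtie2, deepTools and the build dm6 were used, with roles, versions, strand setting and handling of multiply mapped reads not given in the sources used here. Of 17807 IDs, 17710 matched a symbol and 17698 a RefSeq position of Release 6. The table gave no strand for genes, so sides are left and right.

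CPM used column totals. The 9186 genes passing filterByExpr by group were TMM-scaled and tested with edgeR's quasi-likelihood test (robust, genotype the only term) with Benjamini-Hochberg adjustment at 0.05. Tools were edgeR 4.0.16, DESeq2 1.42.0 and limma 3.58.1 in R 4.3.3, with figures from matplotlib 3.10.9, and the code was tested on simulated data. Each SE is the log2 fold change's size over the square root of its F. Counting intervals are exact Poisson intervals at 95%, and they and the floor of 3 counts cover counting error only.

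The 36 genes, the lists and the tests were chosen with earlier results of these data known. Given library by library are the 25 members with the highest wildtype means and those within 20 kb of another. Neighbours are named where called and at least 2-fold changed, and for each marker list its most expressed gene is named. Other neighbours, overlapping genes and relatives were picked as examples once their values were known. The planned comparison with closest paralogs by protein sequence was not run, so relatives are by name only. Alternatives were other scalings, filters, limits and neighbours, DESeq2, the replicate number as a block, and each library left out.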

Additional observations from a re-analysis of the deposited data

How the results depend on the processing

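The set of 36 genes held with TMM-scaled CPM (36, all shared), while 15 genes remained with a wildtype mean of 5 CPM or more, 28 with a nub1 mean under 0.5 CPM, 26 at 10-fold and 35 with every library past its limit. Leaving out 1 library gave 35 to 40 genes. Neighbours called lower were 20 to 23 and higher 12 to 18 without 1 library, and 48 and 26 with the 2 nearest genes on each side (125 genes). Keeping overlapping genes gave 32 lower and 21 higher of 81. Genes called lower ranged from 1726 to 2437 and higher from 1827 to 2675 over all alternatives, with 1815 lower and 2675 higher on library sizes only. Deviations of samples with the same replicate number had correlations of 0.0426, 0.0346 and 0.248. They were not set against samples of different number, so they do not show whether the numbers pair the libraries. With the replicate block 22 neighbours were lower and 19 higher, among 2437 lower and 2451 higher genes. Some uncalled genes changed sign without passing the test, and the cause was not tested. Tsp42Ef was 0.02 on library sizes only and -0.05 to 0.03 without 1 library, veil -0.23 to 0.20, and TwdlT -0.02 to 0.43. The counts of closest paralogs called lower or higher were not run. In nub1, 5 members rest on under 10 counts in all, which limits their ratios.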

Other observations

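A library was looked for that stood at least 10-fold from both others of its genotype, as wildtype replicate 1 did for Syt4, with the higher side at 2 CPM or more. Outside the set 7 genes had one, and the search was made after the values of Syt4 were seen. In nub1 replicate 3, 4 genes were low by this measure. Blimp-1 had 68.0, 81.8 and 3.77 CPM in nub1 replicates 1 to 3, Hr4 had 97.2, 109 and 4.16 CPM, and Hr3 had 3.92, 4.47 and 0 CPM. In wildtype the same genes had 266, 278 and 175 CPM, 254, 311 and 184 CPM, and 3.44, 1.90 and 2.34 CPM. CG5639 had 14.7, 16.5 and 1.10 CPM in nub1. The adjacent X-linked glutathione synthetase genes Gss1 and Gss2 each had 1 high library, Gss1 at 3.30 CPM in wildtype replicate 3 against 0.0484 and 0.257 CPM in the other 2, and Gss2 at 2.90 CPM in nub1 replicate 3 against 0.139 and 0.0789 CPM. CG18542 had 2.27 CPM in nub1 replicate 1 against 0.0395 and 0.012 CPM in nub1 replicates 2 and 3. In the set, Syt4 alone had such a library at that minimum level.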
